A study of Homo sapiens with 60 samples.

Results

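Menthae Herba, the dried herb of mint, and Saposhnikoviae Radix, the dried root of Saposhnikovia divaricata, were compared at a matched medium dose of 100 µg/mL in A549 cells. A549 is an established line of human lung carcinoma origin. The libraries were chosen by their labelled extract and dose, 3 with Menthae Herba and 3 with Saposhnikoviae Radix, 6 of the 60 libraries of the series. RNA was sequenced 24 h after the start of treatment with the ethanol extracts, and all 6 libraries carry library set number 12. The same extracts at the low dose of 20 µg/mL (3 libraries each, also set 12) and 3 vehicle libraries are used where a gene's dose pattern is given, and the high dose of 500 µg/mL (3 libraries each) is given as levels only. The sample labels put the vehicle at 0.1% DMSO and the text on the whole series at 2%, which was not resolved, and vehicle was not part of set 12 but a separate library set. The labels do not say whether replicates came from separate cultures, so the p-values reflect spread among libraries that may be technical. As a model the study is limited to 1 tumour cell line, and each extract is a mixture.

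The difference between the extracts was small and led by genes of the aryl hydrocarbon receptor (AHR). AHR is a cytosolic receptor that is activated by planar aromatic molecules, including plant flavonoids. It then enters the nucleus, pairs with ARNT and binds the short DNA core GCGTG. Its targets include the CYP1 monooxygenases, which oxidise aromatic compounds, and the repressors AHRR and TIPARP, which restrain the receptor in turn. The genes that were lower with Menthae Herba included receptors of the NR4A family, which are orphan nuclear receptors of the immediate early kind, switched on within minutes by cAMP, calcium and growth factor signals. They also included the 3 fibrinogen chains, secreted clotting proteins of the acute phase response that lung epithelial lines can produce.

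The promoters of 4 genes are shown, the called AHR-list and NR4A genes whose windows in the RefSeq promoter table (build GRCh38.p14) hold a match to the motif searched for their list. Each runs 5′ to 3′ on the gene's own strand from 250 bases before to 50 bases after the start. In the first 3, capitals mark the AHR core GCGTG or, where it lies on the opposite strand, its complement CACGC. CYP1A1 is on the minus strand at chr15:74725479-74725778, AHRR on the plus strand at chr5:321464-321763 and TIPARP on the plus strand at chr3:156674340-156674639. In NR4A3, on the plus strand at chr9:99821635-99821934, capitals mark TGACG, the core of the cAMP response element, or its complement CGTCA.
CYP1A1: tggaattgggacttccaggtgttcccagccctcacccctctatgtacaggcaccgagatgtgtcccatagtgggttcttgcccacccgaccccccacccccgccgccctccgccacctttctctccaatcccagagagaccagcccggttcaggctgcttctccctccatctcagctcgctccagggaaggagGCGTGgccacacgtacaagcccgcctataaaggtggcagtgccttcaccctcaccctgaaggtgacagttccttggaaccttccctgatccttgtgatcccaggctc
AHRR: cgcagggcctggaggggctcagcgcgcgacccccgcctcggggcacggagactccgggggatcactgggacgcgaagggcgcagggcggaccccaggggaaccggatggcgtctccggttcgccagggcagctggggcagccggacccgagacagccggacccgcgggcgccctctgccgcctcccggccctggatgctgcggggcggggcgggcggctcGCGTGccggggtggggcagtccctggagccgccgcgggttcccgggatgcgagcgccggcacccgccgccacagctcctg
TIPARP: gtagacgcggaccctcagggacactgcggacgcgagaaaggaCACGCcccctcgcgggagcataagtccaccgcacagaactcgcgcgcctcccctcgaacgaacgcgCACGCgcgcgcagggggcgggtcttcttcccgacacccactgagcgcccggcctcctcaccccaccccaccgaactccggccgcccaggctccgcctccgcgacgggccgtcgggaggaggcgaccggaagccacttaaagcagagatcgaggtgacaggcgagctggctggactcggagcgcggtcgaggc
NR4A3: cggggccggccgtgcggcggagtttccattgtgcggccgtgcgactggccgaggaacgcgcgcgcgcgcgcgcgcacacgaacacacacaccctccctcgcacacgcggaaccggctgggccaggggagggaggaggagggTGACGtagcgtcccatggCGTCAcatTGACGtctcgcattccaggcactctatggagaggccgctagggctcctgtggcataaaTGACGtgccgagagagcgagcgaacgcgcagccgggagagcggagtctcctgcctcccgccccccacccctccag

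The core GCGTG began 57 bases before the start in CYP1A1 and 30 bases before it in AHRR, counted as -57 and -30. TIPARP held 2 matches on the opposite strand, at -208 and -142. Among the AHR genes listed and tested, 6 had a promoter entry and all 6 held the core. They included NQO1, AHR and SLC7A5, which were not called, so the core did not separate called from uncalled members. CYP1B1, which was called, had no promoter entry. Of all 27305 promoters searched, 36.3% held the core and 12.7% held at least 2. TGACG occurred 4 times in the NR4A3 promoter, at -109, -91, -83 and -25. It occurred in 25.0% of all promoters, and 1.47% held at least 3. No match lay in the NR4A1 window (chr12:52022582-52022881), which covers the outermost start of the gene's annotated span. A single window per gene was searched, so any other start of NR4A1 was not examined. TGACG was searched after the gene values were seen, both strands were searched, and neither motif contains the other. A match describes the letters of the window and is not a measured binding site.

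The 3 Menthae Herba libraries held 22762676, 28492016 and 31154706 expected counts and the 3 Saposhnikoviae Radix libraries 29511282, 25973284 and 31668147. All 11 A549 markers reached at least 1 CPM (the count scaled by the normalised library total) in every one of the 6 libraries and the vehicle libraries. Their summed level ran from 22055.2 to 23035.1 CPM with Menthae Herba and from 23013 to 25307.5 CPM with Saposhnikoviae Radix. The leukocyte markers PTPRC and CD3E were at 0 in all of them, but CD14 reached 3.38 CPM with Menthae Herba and 3.49 CPM with Saposhnikoviae Radix. In the 6 libraries summed endothelial markers stayed at or under 0.643 CPM, and hepatocyte and squamous markers at or under 0.435 CPM. Fibroblast markers summed to 31.3 to 42.9 CPM (COL1A1 up to 35.6). Alveolar type 2 markers summed to 24.4 to 30.4 CPM (ABCA3 up to 29.3), and airway ciliated and club markers to 16.3 to 18 CPM. The share of counts from mitochondrial genes was 6.99 to 7.42% with Menthae Herba and 7.78 to 8.35% with Saposhnikoviae Radix, without overlap, and its part in the differences was not tested. Saposhnikoviae Radix replicate 2 stood apart from its group. Its counts differed from those of its replicates by a chi-square of 12.3 and 13.6 per degree of freedom, against 2.23 to 2.81 for the other pairs within the treated groups. Its deviations across genes fell with gene length (Spearman rho -0.53 across 12588 genes, which are not independent replicates). Results that rest on it are therefore given with and without it, except values of single genes against vehicle. For lower genes outside the naming rule, the calls that ended without it are only named.

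Of 18396 genes tested, 42 (0.228%) passed an adjusted p of 0.05 in edgeR's quasi-likelihood test. Of these, 10 (0.0544%) were higher with Menthae Herba and 32 (0.174%) were lower. At an unadjusted p under 0.05 there were 846 genes, 339 higher and 507 lower. The median absolute log2 difference over all genes was 0.0838, and CYP1A1 alone of the 42 differed by at least 2-fold. Without Saposhnikoviae Radix replicate 2, 25 genes passed, of which 24 were among the 42. Without Menthae Herba replicate 2 there were 22, and without Saposhnikoviae Radix replicate 3 there were 27. In each of the 42 genes the 3 libraries of one extract all lay beyond the 3 of the other, a pattern that 15% of all genes tested showed. In bulk RNA of this kind, fewer cells in a state and less RNA per cell cannot be told apart.

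**Figure D1:**
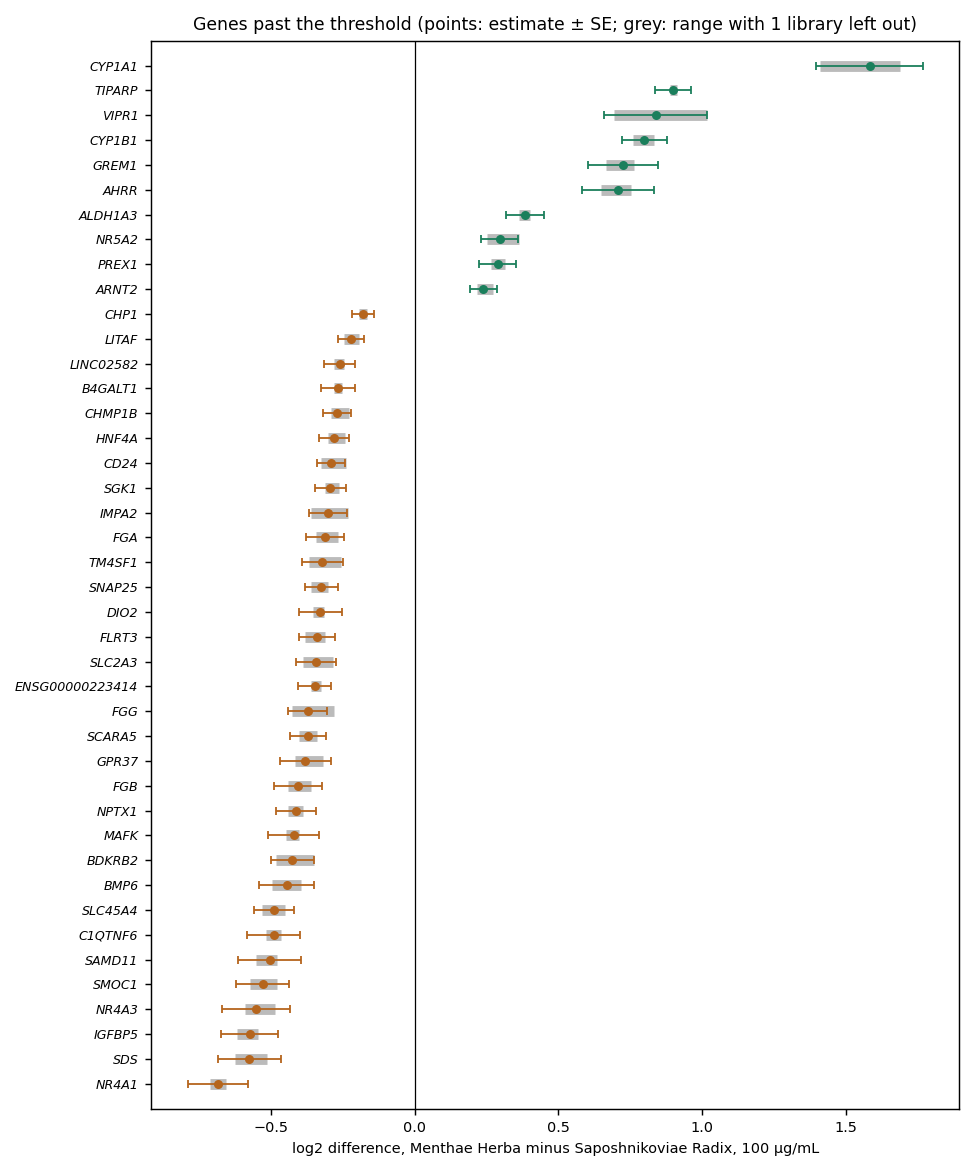
Log2 difference (Menthae Herba minus Saposhnikoviae Radix, 100 µg/mL) of the 42 genes past the threshold, as points with SE bars, green where higher and brown where lower with Menthae Herba. Grey bands give the range of the estimate when each of the 6 libraries was left out in turn, and no band reaches 0. CYP1A1 stands furthest out at 1.58, and most lower genes lie between -0.18 and -0.58.

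AHR targets were higher with Menthae Herba. TIPARP, an ADP-ribosyltransferase that acts as a feedback repressor of AHR (chr3:156673235-156706770, GRCh38), measured 87.2, 90.3 and 88.7 CPM with Menthae Herba and 48.4, 47.6 and 46.8 CPM with Saposhnikoviae Radix. The libraries of each extract lay close together, and the groups were far apart. The log2 difference was 0.90 ± 0.063 (SE), a 1.87-fold level, with an adjusted p of 3.7e-13, the smallest of all genes. CYP1B1, a monooxygenase that oxidises oestrogens and polycyclic aromatics (chr2:38066973-38109902), measured 231.5, 217.5 and 210.9 CPM with Menthae Herba. With Saposhnikoviae Radix it measured 132.3, 125.9 and 120.8 CPM. It was higher by 0.80 ± 0.079 on the log2 scale (adjusted p = 1.02e-08).

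CYP1A1, the classical AHR-induced monooxygenase (chr15:74719542-74725610), was expressed at a low level and showed the largest difference of the 42. Its libraries held 8.05, 7.66 and 6.24 CPM with Menthae Herba and 2.75, 2.74 and 1.85 CPM with Saposhnikoviae Radix. The lowest Menthae Herba library was above the highest Saposhnikoviae Radix library. The log2 difference was 1.58 ± 0.185, a 3.0-fold level (adjusted p = 7.97e-07). AHRR, the AHR repressor (chr5:304176-438291), measured 8.61, 8.98 and 8.43 CPM against 5.43, 4.84 and 5.64 CPM. It was higher by 0.71 ± 0.124 (adjusted p = 0.00159). AHRR overlaps PDCD6 on the same strand, and PDCD6 itself differed by 0.01 on the log2 scale.

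Of the 10 genes listed as AHR and its direct targets 8 were tested, and 4 of these rose and none fell, with a median log2 difference of 0.498 beside -0.005 over all genes tested. Without Saposhnikoviae Radix replicate 2 the count was again 4 and the median 0.483. The 4 others were not called. ALDH3A1, an aldehyde dehydrogenase abundant in A549, measured 1112.7, 1146.9 and 1107.7 CPM with Menthae Herba and 907.2, 955.0 and 892.9 CPM with Saposhnikoviae Radix. Its groups did not overlap, but the difference of 0.29 ± 0.088 had an adjusted p of 0.334. NQO1, a quinone reductase that also answers to NRF2, differed by 0.06, the receptor gene AHR itself by -0.11 and the amino acid transporter SLC7A5 by 0.03, all with overlapping groups. Each of TIPARP, CYP1B1, CYP1A1 and AHRR kept an adjusted p under 0.05 in every alternative analysis run.

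**Figure D2:**
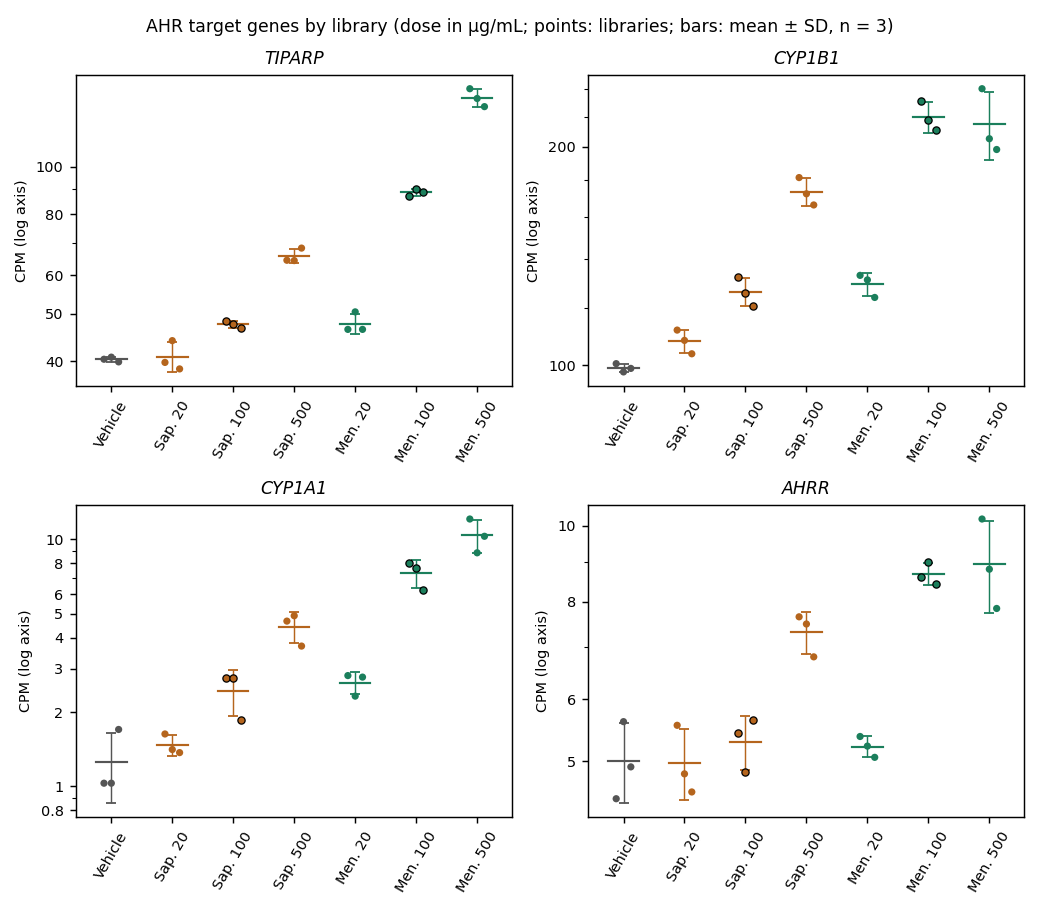
CPM on a log axis of TIPARP, CYP1B1, CYP1A1 and AHRR in each library, with mean ± SD of 3 libraries; Sap. is Saposhnikoviae Radix, Men. is Menthae Herba, the number is the dose in µg/mL, and black outlines mark the 6 libraries compared here. In each panel all Menthae Herba libraries at 100 µg/mL lie above all Saposhnikoviae Radix libraries at that dose.

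The other genes that rose with Menthae Herba were GREM1, ALDH1A3, NR5A2, PREX1, ARNT2 and VIPR1. GREM1, a secreted antagonist of bone morphogenetic proteins, measured 10.1, 11.3 and 10.7 CPM with Menthae Herba and 6.71, 6.78 and 5.98 CPM with Saposhnikoviae Radix, where it stayed close to the vehicle mean of 6.08 ± 0.71 CPM (SD, n = 3). Its log2 difference was 0.72 ± 0.122 (adjusted p = 0.00116). ALDH1A3, which makes retinoic acid from retinaldehyde, measured 32.7, 31.5 and 31.1 CPM against 24.9, 24.1 and 23.9 CPM, a difference of 0.38 ± 0.067 (adjusted p = 0.0015). It was the only called member of the 11 aldo-keto reductases and aldehyde dehydrogenases tested, whose median difference was -0.025 with 5 positive values, and 0.061 with 7 without Saposhnikoviae Radix replicate 2. GREM1 and ALDH1A3 passed in every alternative.

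The remaining rises were smaller or less stable. ARNT2, a partner protein related to the AHR partner ARNT, averaged 43.0 ± 1.3 CPM with Menthae Herba and 36.5 ± 1.5 CPM with Saposhnikoviae Radix, a difference of 0.24 ± 0.047 (adjusted p = 0.00747). The nuclear receptor NR5A2 differed by 0.30 ± 0.065 (adjusted p = 0.0255) and the Rac exchange factor PREX1 by 0.29 ± 0.066 (adjusted p = 0.0348). VIPR1, the receptor of vasoactive intestinal peptide, fell outside the rule for naming genes because of its low level of 2.51 ± 0.62 against 1.41 ± 0.085 CPM. Its difference was 0.84 ± 0.179 (adjusted p = 0.019). These 4 calls each ended without Saposhnikoviae Radix replicate 2 (adjusted p = 0.0988 for ARNT2, 0.367 for NR5A2, 0.204 for PREX1 and 0.118 for VIPR1), and also when Menthae Herba replicate 2 or Saposhnikoviae Radix replicate 3 was left out. With no filter on low counts they ended too (0.734, 0.335, 0.353 and 0.0735 in the same order).

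NR4A receptors were lower with Menthae Herba. NR4A1 (Nur77; chr12:52022832-52059507) measured 18, 18.2 and 17.8 CPM with Menthae Herba and 29, 30.0 and 27.8 CPM with Saposhnikoviae Radix. The replicates of each extract were tight and the groups did not overlap. It fell by 0.69 ± 0.105 on the log2 scale (adjusted p = 0.000273) and passed in every alternative run. NR4A3 (NOR1; chr9:99821855-99866891) measured 5.21, 4.54 and 5.22 CPM against 7.55, 7.29 and 7.11 CPM and fell by 0.55 ± 0.118 (adjusted p = 0.019). Its call ended whichever of the 6 libraries was left out, with an adjusted p between 0.051 (without Menthae Herba replicate 1) and 0.273 (without Menthae Herba replicate 2). NR4A2 measured 2.71, 2.67 and 3.28 CPM against 5.23, 3.92 and 4.20 CPM. Its groups did not overlap either, and the difference of -0.62 ± 0.172 had an adjusted p of 0.18. So 2 of the 3 members were called lower, and the family median was -0.622. The 19 other AP-1 and immediate early genes tested had no called member and a median of -0.096.

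Fibrinogen genes were lower with Menthae Herba as a cluster of 3 neighbours on chromosome 4. FGB (chr4:154562956-154571086) measured 174.7, 161.2 and 173.8 CPM with Menthae Herba and 215.1, 239.5 and 221.9 CPM with Saposhnikoviae Radix. FGG (chr4:154604134-154612967) measured 124.9, 115.0 and 115.9 CPM against 141.8, 172.2 and 146.9 CPM. FGA (chr4:154583126-154590766) measured 180.3, 168.0 and 171.4 CPM against 210.1, 228.2 and 207.3 CPM. In all 3 genes the highest value was that of Saposhnikoviae Radix replicate 2, the library that stands apart. The log2 differences were -0.41 ± 0.084 for FGB (adjusted p = 0.0114), -0.37 ± 0.067 for FGG (adjusted p = 0.00197) and -0.31 ± 0.067 for FGA (adjusted p = 0.019). Without that library all 3 remained lower but none passed, at -0.36, -0.28 and -0.27 with adjusted p of 0.148, 0.105 and 0.315. Without Menthae Herba replicate 2 only FGG passed.

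Among the other 7 fibrinogen and acute phase genes tested none was called. Complement C3 came nearest at -0.21 ± 0.100 (adjusted p = 1), and SERPINA1, CFB, LCN2 and TF were all near or under 1 CPM. The list's median was -0.19, and -0.253 without Saposhnikoviae Radix replicate 2. CTGGGAA, the STAT3 element of acute phase promoters, chosen after the values were seen, occurred in the FGB window at -112 and the FGG window at -161 but not in FGA. That is 2 of 9 listed members with a promoter entry, beside 11.0% of all promoters. HNF4A, a nuclear receptor that drives liver and gut genes, was also lower, with 74.3, 75.4 and 73.3 CPM against 88.3, 87.5 and 95.2 CPM. Its difference was -0.28 ± 0.052 (adjusted p = 0.00236), and its call ended without Saposhnikoviae Radix replicate 3 (adjusted p = 0.0631). HNF4A was not among the genes taken by the naming rule and was chosen after its values were seen.

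**Figure D3:**
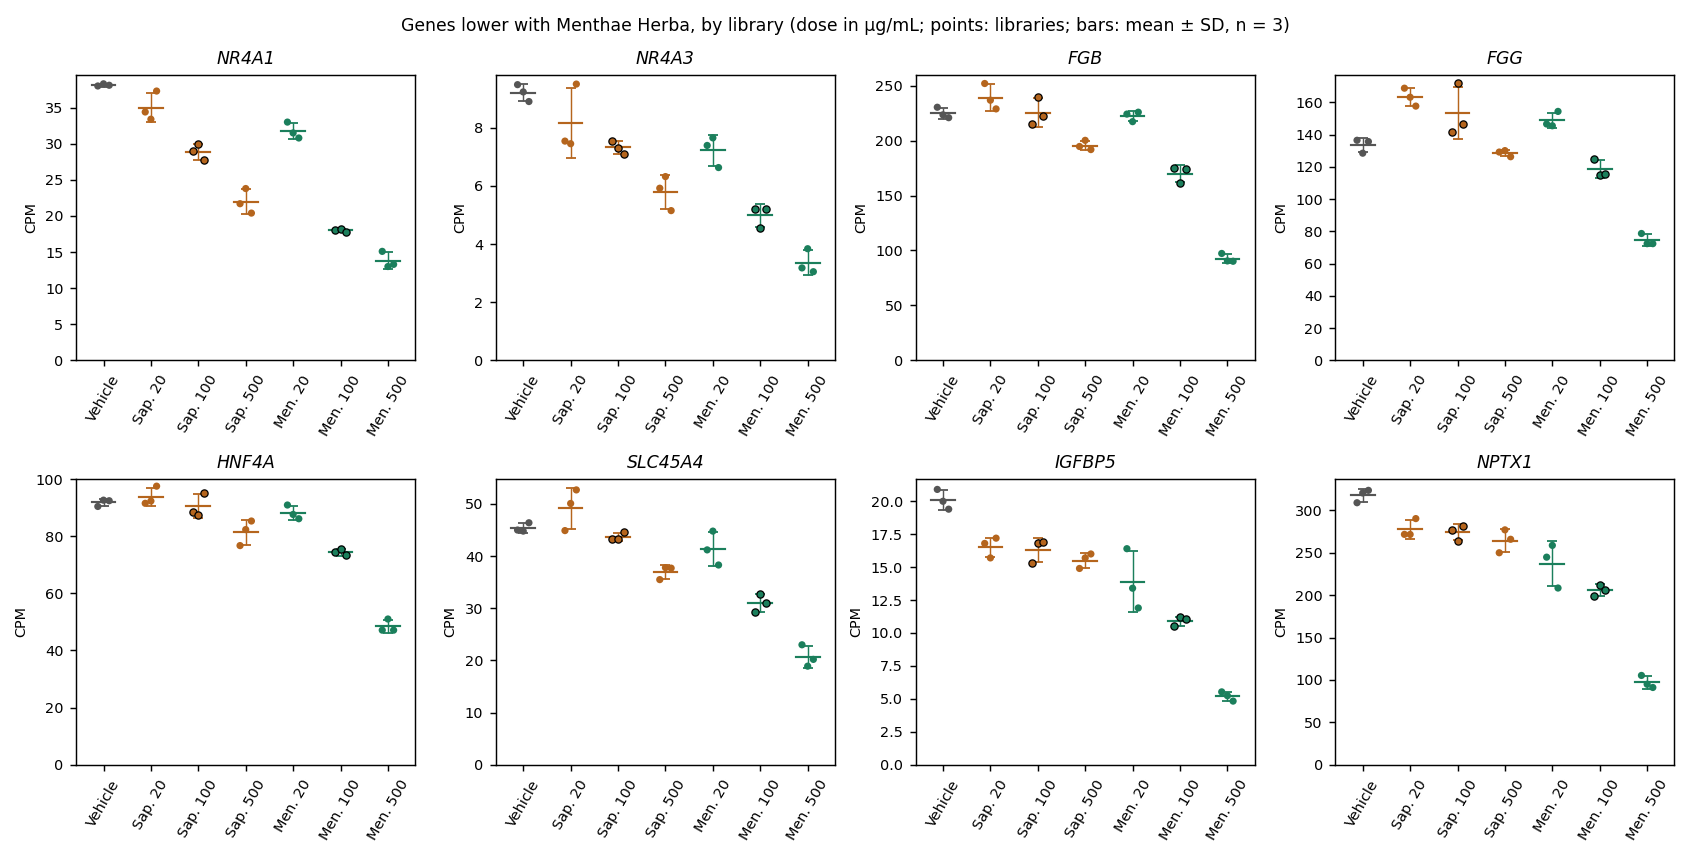
CPM of 8 genes that were lower with Menthae Herba at 100 µg/mL, in each library with mean ± SD of 3 libraries; Sap. is Saposhnikoviae Radix, Men. is Menthae Herba, the number is the dose in µg/mL, and black outlines mark the libraries compared. For NR4A1 the 3 Menthae Herba libraries sit between 17.8 and 18.2 CPM and the 3 Saposhnikoviae Radix libraries between 27.8 and 30.0 CPM, and for FGG 1 Saposhnikoviae Radix library lies at 172.2 CPM, above the other 2.

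IGFBP5, SMOC1, NPTX1, C1QTNF6, BMP6 and BDKRB2 were also lower with Menthae Herba. IGFBP5, a secreted carrier of insulin-like growth factors, measured 10.5, 11.2 and 11.1 CPM with Menthae Herba and 15.3, 16.8 and 16.9 CPM with Saposhnikoviae Radix, both under the vehicle mean of 20.1 ± 0.78 CPM. It fell by 0.575 ± 0.099 (adjusted p = 0.0014). SMOC1, a secreted calcium-binding matrix protein, measured 9.81, 10.7 and 11.2 CPM against 14.6, 15.7 and 15.7 CPM, a fall of 0.53 ± 0.093 (adjusted p = 0.00155). NPTX1, a secreted pentraxin, measured 198.9, 212.4 and 206.3 CPM against 277.2, 263.8 and 281.9 CPM, a fall of 0.41 ± 0.070 (adjusted p = 0.00116).

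C1QTNF6, a secreted C1q/TNF-related protein, measured 35.1, 34.6 and 34.1 CPM against 48.8, 46.9 and 50.3 CPM and fell by 0.49 ± 0.091 (adjusted p = 0.00249). IGFBP5, SMOC1, NPTX1 and C1QTNF6 passed in every alternative run. BMP6, a bone morphogenetic protein, averaged 10.8 ± 0.74 CPM against 14.7 ± 0.87 CPM (log2 difference -0.45 ± 0.096, adjusted p = 0.019). Its call ended when any of 4 libraries was left out, with the highest adjusted p, 0.217, without Menthae Herba replicate 3. The bradykinin receptor BDKRB2 averaged 17.4 ± 1.7 CPM against 23.4 ± 0.95 CPM, a fall of 0.43 ± 0.075 (adjusted p = 0.00155). That call ended when only the 6 libraries were fitted (adjusted p = 0.0547).

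SLC45A4, SDS, MAFK and SAMD11 were lower with Menthae Herba as well. SLC45A4, a solute carrier family member (chr8:141207166-141308305), measured 29.3, 32.8 and 31.1 CPM with Menthae Herba and 43.2, 43.2 and 44.6 CPM with Saposhnikoviae Radix. It fell by 0.49 ± 0.069 (adjusted p = 4.92e-05), the smallest adjusted p among the lower genes, and passed in every alternative. SDS, the serine dehydratase that turns serine into pyruvate, measured 11.4, 10.6 and 12.1 CPM against 15.9, 18.4 and 16.6 CPM, a fall of 0.58 ± 0.111 (adjusted p = 0.00491). Without Saposhnikoviae Radix replicate 2 SDS had an adjusted p of 0.0865, and without Menthae Herba replicate 2 of 0.105. MAFK, a small Maf partner of NRF2 and other bZIP factors, fell by 0.42 ± 0.090 (adjusted p = 0.0183), and SAMD11 by 0.51 ± 0.111 (adjusted p = 0.0241). The MAFK call ended when any of 4 libraries was left out (adjusted p up to 0.167), among them Saposhnikoviae Radix replicate 2 (0.146). It also ended with offsets for GC content and gene length (adjusted p = 0.103). The SAMD11 call ended when any of 5 was left out (up to 0.154).

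The other lower genes were outside the naming rule and are listed to complete the 42. They were the ferritin receptor gene SCARA5, the adhesion and surface genes CD24, FLRT3, TM4SF1 and GPR37, the vesicle and membrane genes SNAP25, CHMP1B, LITAF and CHP1, the metabolic genes SLC2A3, IMPA2, B4GALT1 and DIO2, the kinase gene SGK1, the noncoding LINC02582 and ENSG00000223414, which has no symbol. Their log2 differences ran from -0.18 for CHP1 to -0.38 for GPR37. Without Saposhnikoviae Radix replicate 2 the calls of TM4SF1, GPR37, CHMP1B, LITAF, CHP1, IMPA2, B4GALT1 and DIO2 ended. The adjusted p then ran from 0.0545 for CHMP1B to 0.464 for IMPA2. The calls of DIO2, B4GALT1 and GPR37 ended whichever of the 6 libraries was left out. SCARA5, SNAP25 and ENSG00000223414 passed in every alternative. SGK1, a glucocorticoid-responsive kinase, was the only called member among 8 steroid receptor targets tested, whose median was 0.025. CD24 and SLC2A3 have near-identical copies in the genome, so their counts are uncertain. NR4A1, CYP1B1, TIPARP and several others overlap a gene on the opposite strand, and no source used here gives the strand setting of the counting.

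In the other 39 gene lists no member was called, beside a background of 0.228% of genes called. They covered stress responses, lipid and glucose metabolism, proliferation, inflammation, matrix, mucins, keratins and conjugating enzymes. The 25 cholesterol genes tested had a median of -0.017, the 24 p53 targets of 0.047 and the 23 mitosis genes of -0.025. The 19 NRF2 targets and antioxidant enzymes had a median of -0.027 with 8 positive values, and of 0.033 with 13 without Saposhnikoviae Radix replicate 2. Over all 18396 genes tested 8804 had positive values, and 9324 without that library. Some lists leaned one way without any call. Besides those described next, 0 of 13 glutathione transferases and peroxidases had positive values (4 without Saposhnikoviae Radix replicate 2). So had 2 of 17 extracellular matrix and basement membrane genes, and again 2 without that library. All 19 ER chaperone and unfolded protein response genes had negative values (median -0.102, XBP1 at -0.23), against 16 without Saposhnikoviae Radix replicate 2, when the median was -0.079. Of 15 NF-kB genes 14 had positive values (median 0.127, BIRC3 at 0.36 with an adjusted p of 0.401), and again 14 without that library. Of 27 ATF4 and integrated stress response genes 20 had positive values (median 0.089, STC2 at 0.37 with an adjusted p of 0.233), and again 20 without it.

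All 13 mitochondrially encoded mRNAs had negative values, with a median of -0.191 and of -0.143 without Saposhnikoviae Radix replicate 2. They move with the mitochondrial share given above. In 13 of the 44 lists the median changed sign without that library, so no direction is given for them. They include the NRF2 list and the aldo-keto reductases and aldehyde dehydrogenases given above, and the cytosolic ribosomal proteins, nuclear respiratory chain subunits and proteasome subunits. Of 34 ribosomal protein genes 10 had positive values with it and 31 without it (median -0.023 and 0.093). Of 27 respiratory chain genes the counts were 4 and 22 (median -0.05 and 0.051), and of 28 proteasome genes 5 and 23 (median -0.035 and 0.038).

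**Figure D4:**
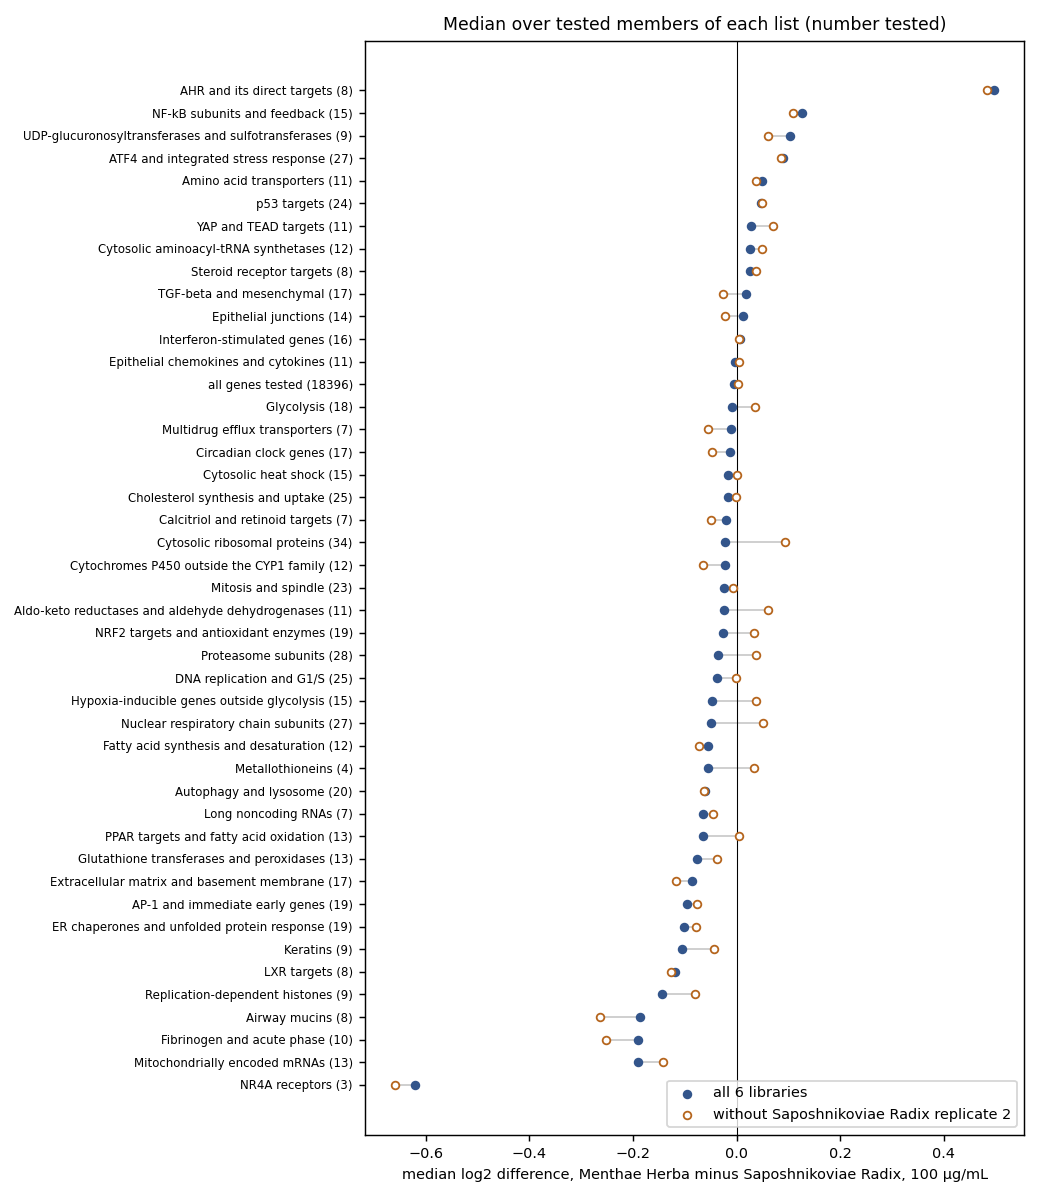
Median log2 difference (Menthae Herba minus Saposhnikoviae Radix, 100 µg/mL) over the tested members of each gene list, with the number tested in brackets, from all 6 libraries (filled) and without Saposhnikoviae Radix replicate 2 (open). AHR targets lie furthest to the right at 0.498 and NR4A receptors furthest to the left at -0.622, and the open and filled points fall on opposite sides of 0 for several lists, among them the ribosomal and respiratory chain genes.

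At the low dose of 20 µg/mL no gene (0%) passed the threshold between the extracts in edgeR. An unadjusted p under 0.05 was reached by 616 genes, and DESeq2's Wald test called 1 gene. Of the 42 genes called at 100 µg/mL, 38 had the same sign at 20 µg/mL and 11 an unadjusted p under 0.05. The share of all genes with the same sign at both doses was not counted. The groups did not overlap at 20 µg/mL in 16 of the 42, a pattern that 11.2% of all genes tested showed at that dose. The median difference of the 10 higher genes was 0.088 at the low dose and 0.715 at the medium dose, and that of the 32 lower genes was -0.101 and -0.361. The medium values are those that chose the genes. CYP1A1 differed by 0.84 ± 0.211 at the low dose (unadjusted p = 0.000287), CYP1B1 by 0.26 ± 0.079 and TIPARP by 0.23 ± 0.064, whereas AHRR differed by 0.07 ± 0.130 and NR4A1 by -0.14 ± 0.101.

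A test of the difference between doses, the gap at 100 µg/mL minus the gap at 20 µg/mL, called 1 gene (0.00544%), and 740 reached 0.05 before adjustment. The called gene was TIPARP, whose gap was larger at the medium dose by 0.67 ± 0.089 (adjusted p = 6.12e-05). TIPARP measured 46.5, 50.5 and 46.5 CPM with Menthae Herba at 20 µg/mL and 39.8, 44.1 and 38.6 CPM with Saposhnikoviae Radix, and the medium-dose libraries given above are far wider apart. For CYP1B1 the same difference was 0.54 ± 0.111 (adjusted p = 0.178) and for NR4A1 -0.54 ± 0.146 (adjusted p = 0.816). For SDS, the called gene with the largest opposite sign at the low dose, it was -0.65 ± 0.156 (adjusted p = 0.6).

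**Figure D5:**
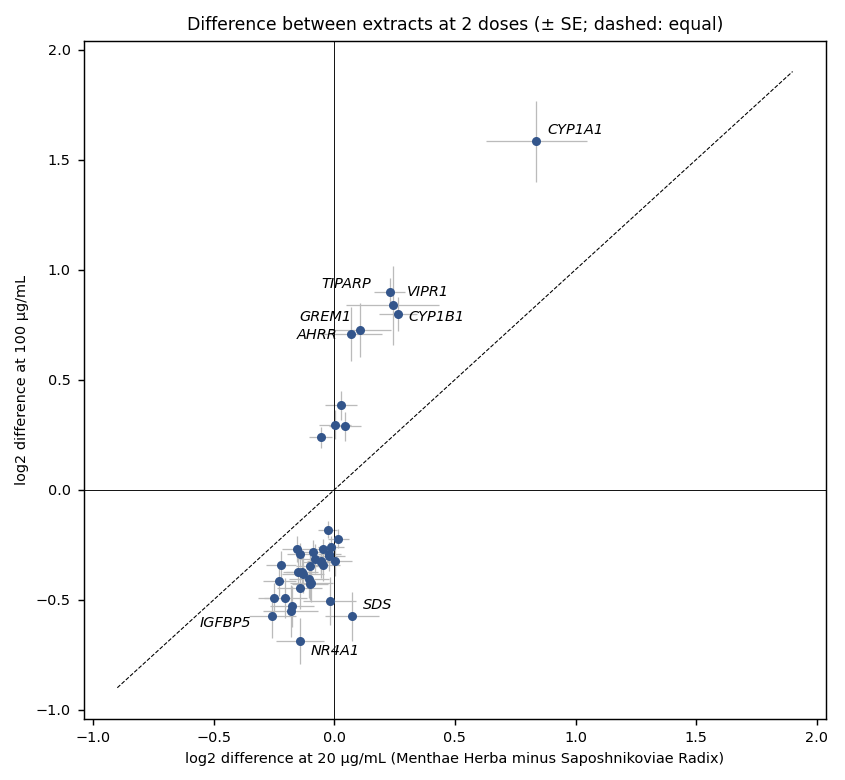
Log2 difference (Menthae Herba minus Saposhnikoviae Radix) at 20 µg/mL on the x axis and at 100 µg/mL on the y axis for the 42 genes called at 100 µg/mL, each with SE bars. The dashed line marks equal differences. Most points lie nearer to 0 at 20 µg/mL than at 100 µg/mL, with CYP1A1 at 0.84 and 1.58.

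Against vehicle, Menthae Herba at 100 µg/mL gave 1019 called genes (5.54%), 534 higher (2.9%) and 485 lower (2.64%). When any 1 of those 6 libraries was left out, the count was 312 to 403. Saposhnikoviae Radix gave 1461 (7.94%), 836 higher (4.54%) and 625 lower (3.4%). The 1461 became 130 without Saposhnikoviae Radix replicate 2 and 490 to 548 without any 1 vehicle library. Values of single genes with Saposhnikoviae Radix against vehicle are not given without that replicate, so their calls may rest on it. The comparisons share the vehicle libraries. All 3 vehicle libraries held the transcript ENSG00000282955 at 20.4 CPM or more, whereas the 6 treated libraries held 0 to 3.41 CPM, and the mitochondrial share was 11.5 to 11.8% in vehicle. Library set and treatment cannot be told apart in the vehicle comparisons. The library class set by this transcript also separates vehicle from the 6 treated libraries, but it varies within other groups of the fit, so values with class as a covariate are given beside the others. Of the 42 genes, 29 were called against vehicle with Menthae Herba and 11 with Saposhnikoviae Radix (27 and 13 with the class covariate). The counts over all genes with that covariate are given in the section on processing. In 35 of the 42 the Menthae Herba mean lay further from vehicle, a share not counted over all genes. The 42 were chosen on the same treated libraries, so these counts are not independent of that choice.

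TIPARP was higher than vehicle by 1.14 with Menthae Herba (adjusted p = 1.47e-16) and by 0.24 with Saposhnikoviae Radix (adjusted p = 0.0183). The latter call ended with library class as a covariate (0.15, adjusted p = 0.102). CYP1A1 rose by 2.54 and 0.955 and CYP1B1 by 1.15 and 0.35, all past the threshold, with the class covariate too. AHRR rose by 0.79 with Menthae Herba (adjusted p = 0.00012) and differed by 0.08 with Saposhnikoviae Radix (adjusted p = 0.742). NR4A1 fell by 1.085 with Menthae Herba (adjusted p = 2.55e-09) and by 0.40 with Saposhnikoviae Radix (adjusted p = 0.0139), which became -0.15 (adjusted p = 0.18) with the class covariate.

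A few genes passed the threshold against vehicle with Saposhnikoviae Radix and not with Menthae Herba, which is not a test of the difference in itself. SDS rose by 0.49 with Saposhnikoviae Radix (adjusted p = 0.00633) and differed by -0.08 with Menthae Herba (adjusted p = 0.708). SGK1 rose by 0.23 with Saposhnikoviae Radix (adjusted p = 0.00897) and differed by -0.07 with Menthae Herba (adjusted p = 0.484). ARNT2 fell by 0.18 with Saposhnikoviae Radix (adjusted p = 0.0162) and differed by 0.06 with Menthae Herba (adjusted p = 0.492). These 3 calls with Saposhnikoviae Radix held with the class covariate (0.61, 0.19 and -0.16, adjusted p = 0.000383, 0.0191 and 0.0268 in the same order). They were not examined without Saposhnikoviae Radix replicate 2.

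The fibrinogen values against vehicle moved with library class. FGB fell by 0.40 with Menthae Herba (adjusted p = 0.00345) and differed by less than 0.01 with Saposhnikoviae Radix. With the class covariate FGB fell by 0.215 with Menthae Herba (adjusted p = 0.0293) and rose by 0.19 with Saposhnikoviae Radix (adjusted p = 0.0405). FGG was called with neither extract without the covariate (-0.17 and 0.20), and with it rose by 0.27 with Saposhnikoviae Radix (adjusted p = 0.00644) while the Menthae Herba value was -0.10 (adjusted p = 0.386). FGA was called with neither extract in either fit.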

How the data were processed

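RNA sequencing of A549 cells was used from the deposited expected counts for Ensembl genes, made by the authors from reads. The submitters' processing notes name RSEM 1.3.3, STAR 2.7.3a, Trim Galore 0.6.5 and FastQC 0.11.9, with GRCh38. No source used here gives the annotation release or strand setting. Decimals occur in 9.95% of the values, which were rounded. Totals of the 6 libraries compared ran from 22762676 to 31668147, with a median SE of 0.126 (log2) per gene. edgeR 4.0.16 (R 4.3.3, limma 3.58.1) fitted 57 libraries in 22 groups after TMM and filterByExpr (18396 genes), with two-sided quasi-likelihood F-tests, 35 residual degrees of freedom and Benjamini-Hochberg adjustment over all genes at 0.05, for 5 comparisons. The SE is the absolute log2 difference divided by the square root of F. Positions are from GENCODE 29 (57055 of 60675 IDs matched).

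The comparison, its members, the 44 gene lists and the tests were chosen with earlier results of these data known. The naming rule took up to 12 genes per direction with the largest difference among called genes, requiring a symbol, a mean level of 2 or more in log2 CPM, groups that do not overlap and a call with library class as a covariate. It added up to 3 called members of each list with at least 3 or 20% of members called, and CYP1A1, CYP1B1 and TIPARP. Library class 2 held ENSG00000282955 at 10 CPM or more. Replicate numbers were checked for pairing over all genes tested in both medium-dose groups, and they are not taken as pairs. That check cannot exclude a shared deviation in single genes. Alternatives were DESeq2 (1.42.0) size factors and Wald test, no filter, a class covariate, GC and length offsets, fewer libraries, a replicate block and each library left out. The test was checked on simulated counts with 50 genes changed at each size. It called 9 of them at a log2 change of 0.3, 37 at 0.5 and all 50 at 0.8 and at 1.5. Of 155 calls 9 were false. The simulation held no library that stands apart.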

Additional observations from a re-analysis of the deposited data

Results flagged for a closer look

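TIPARP is listed because the gap between the extracts differed between doses. The gap at 100 µg/mL was larger than the gap at 20 µg/mL by 0.67 ± 0.0891 on the log2 scale (edgeR, adjusted p = 6.12e-05). All 3 Menthae Herba libraries exceeded all 3 Saposhnikoviae Radix libraries at each of these doses.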

How the results depend on the processing

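The 42 genes called at the medium dose became 1 at a threshold of 2-fold and 81 with library class as a covariate (all 42 shared). With no filter on low counts there were 126, of which only 27 were among the 42. Offsets for GC content and gene length gave 70 (40 shared), and only the 18 libraries of set 12 gave 68 (37 shared). Fitting only the 6 libraries compared gave 48, of which 27 were among the 42. Splitting the groups by library class in the fit of all 57 libraries gave 106 (all 42 shared). DESeq2's Wald test gave 63 (41 shared) and DESeq2 size factors 42. Leaving out 1 library gave 22 to 35. No named gene changed sign in any of the 15 alternatives, 15 of the 42 genes passed in every alternative and 18 whichever library was left out. The AHR count stayed at 4 or 5. The NR4A count was 1 in every such omission (range 1 to 1) and 2 or 3 otherwise, and the fibrinogen count ran from 0 to 3. At the low dose the count of 0 became 1 by DESeq2's Wald test and 116 with no filter, and stayed at 0 in each omission. The dose difference, 1 gene, became 2 by DESeq2's Wald test, 4 with the class covariate and 156 with no filter. It became 3 with only the 4 groups compared, 3 with groups split by library class and 2 with the replicate block. Against vehicle, the Menthae Herba count of 1019 became 1988 with the class covariate, 1962 with no filter and 5869 with only the groups compared, and 312 to 403 when a library was left out. The Saposhnikoviae Radix count of 1461 became 2804, 2217 and 3510 under the same 3 alternatives and 130 (without replicate 2) to 1383 when a library was left out. The cause of these shifts was not tested. The replicate block gave 80 genes at the medium dose, with all 42 among them, and 0 at the low dose. Over all genes tested, same-numbered medium-dose libraries did not deviate together (r = -0.001, -0.006 and -0.013), so the numbers are not taken as pairs. Single genes can differ from this. CYP1B1 fell from replicate 1 to replicate 3 with both extracts at the medium dose, and its SE was 0.0511 with the block and 0.0787 without. No list count was moved by more than 1.5 times by the block. Depth and 3 libraries per group limit detection to larger changes.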

Other observations

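Levels at different doses of the extracts can be set side by side, with the difference in dose in mind and no test made. TIPARP averaged 47.8 ± 2.3 CPM (SD, n = 3) with Menthae Herba at 20 µg/mL and 47.6 ± 0.81 CPM with Saposhnikoviae Radix at 100 µg/mL. CYP1B1 averaged 129.4 ± 4.7 and 126.3 ± 5.8 CPM, and CYP1A1 2.63 ± 0.27 and 2.44 ± 0.52 CPM, in the same order. At the next step, TIPARP averaged 88.7 ± 1.5 CPM with Menthae Herba at 100 µg/mL and 65.7 ± 2.2 CPM with Saposhnikoviae Radix at 500 µg/mL. AHRR averaged 8.67 ± 0.28 and 7.31 ± 0.45 CPM there. NR4A1 averaged 31.8 ± 1.1 CPM with Menthae Herba at 20 µg/mL and 28.9 ± 1.1 CPM with Saposhnikoviae Radix at 100 µg/mL.

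At 500 µg/mL of Menthae Herba the mean of 40 of the 42 genes lay further out in the direction seen at 100 µg/mL, 8 of 10 higher and 32 of 32 lower genes. The exceptions were CYP1B1, with 214.7 ± 23.0 CPM after 219.9 ± 11.0 CPM, and NR5A2, with 24.5 ± 2.3 CPM after 27.5 ± 1.1 CPM. The share of all genes that lay further out was not counted, and the 42 were chosen on the libraries at 100 µg/mL. GREM1 reached 23.4 ± 1.4 CPM at 500 µg/mL, whereas with Saposhnikoviae Radix it stayed between 6.13 and 6.63 CPM on average at the 3 doses. IGFBP5 averaged 5.2 ± 0.35 CPM with Menthae Herba at 500 µg/mL and 15.5 ± 0.58 CPM with Saposhnikoviae Radix. These values were chosen after they were seen and were not tested.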
